A study of Mus musculus with 9 samples.

Results

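The mouse melanoma line B16F10-BrM was compared with the mouse lung carcinoma line 482N1, grown in the same medium, across all genes that a filter on low counts kept. The comparison uses 6 of the 9 libraries of the series, 3 of each line, and 11037 of the 11046 genes in the count table. Every gene that passed the filter was kept, whatever its difference between the lines. Poly(A)-selected, stranded RNA sequencing was done on untreated cultures, in a study of how brain metastases of different origin relate to electrical activity and gene expression. The labels describe B16F10-BrM as BRAF-mutant melanoma and 482N1 as a non-small-cell carcinoma of the lung, and give both the genotype WT. BrM stands for brain metastatic. Both lines were kept in DMEM with fetal bovine serum, penicillin, streptomycin and amphotericin B. The third line of the series, the breast carcinoma E0771-BrM, was kept in another medium. It is no side of the contrast, but it enters the filter, the scaling and the estimate of the spread between libraries. With the 6 libraries alone 10927 genes were tested, so some genes counted below passed the filter only with the third line. Each tumour type is represented by 1 line, so a difference between tumour types and a difference between these particular lines cannot be told apart. The libraries are named A, B and C, and no label says whether they came from separate cultures. The p-values therefore measure the spread between these libraries, which may be technical.

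Melanocytes descend from the neural crest, a migratory cell population of the embryo, and carry pigment in organelles related to lysosomes. The epithelium of the lung descends from the foregut, rests on a basement membrane and is held together by keratins and cell junctions. Tumour lines keep parts of the programme of their tissue of origin, and they also differ in how fast they divide, how they make energy and which growth signals they make and receive.

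Every level below is a TMM-normalised CPM value (counts scaled to library size), and 3 values in a row are libraries A, B and C in that order. Values after ± are the SD of 3 libraries for a level and the SE of the model coefficient for a log2 fold change, which is always B16F10-BrM minus 482N1. Where a pair of levels stands in brackets, it gives the mean of 482N1 against that of B16F10-BrM, followed by the log2 fold change. A gene is called higher or lower where the quasi-likelihood F test of edgeR gave a Benjamini-Hochberg adjusted p below 0.05 over all genes tested. CPM values are not divided by gene length, so they are compared between lines and not between genes. Each value comes from a bulk culture, in which fewer cells that express a gene and less RNA per cell cannot be told apart.

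The libraries held 7484781 to 9293348 counts each, and 10756 to 10961 genes had a count in each of them. Nuclear-encoded 18S ribosomal RNA (Rn18s) took 11.6 to 13.1% of the counts in 482N1 and 6.40 to 7.99% in B16F10-BrM, and the shares of ribosomal proteins are given with and without the nuclear and mitochondrial ribosomal RNA genes. The 5 melanocyte markers measured (Tyrp1, Dct, Pmel, Mitf and Gpnmb), of 22 listed, summed to 24630 to 25484 CPM in B16F10-BrM. The 5 keratin and epithelial adhesion markers measured, also of 22 listed, summed to 7436 to 8026 CPM in 482N1 and 11.1 to 11.4 CPM in B16F10-BrM. Of these 5, 4 were lower in B16F10-BrM, and the keratin Krt80 went against the label, higher in B16F10-BrM (2.68 against 11.1 CPM, 2.05 ± 0.25). Of 22 lung markers listed, 4 were measured (Abca3, Foxa1, Ctsh and Etv5), and they summed to 209 to 245 CPM in 482N1 and 15.5 to 22.6 CPM in B16F10-BrM. The other lung markers, among them those that define airway and alveolar cells, are not among the genes of the count table. The lung label was therefore checked with these 4 genes only. The melanocyte markers also gave 27.9 and 28.1 CPM in libraries A and C of 482N1 and 2.77 CPM in library B. Their part in other genes was not tested, but 7682 genes were called with library B as the only library of 482N1 and of E0771-BrM, 7510 of them called in the same direction with all libraries. That fit takes the spread from B16F10-BrM alone, and it changes both carcinoma lines at once.

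Of 11037 genes, 8592 (77.8%) were called, 4190 (38.0%) higher in B16F10-BrM and 4402 (39.9%) lower. Both percentages are the background for every count of list members below. The difference was at least 2-fold for 2086 genes (18.9%) in the higher direction and 2413 (21.9%) in the lower, and at least 8-fold for 381 and 677. A further 4093 called genes lay within 2-fold. The median log2 fold change over all genes was -0.04 and the median of its size 0.79. The 3 libraries of one line lay wholly above or below those of the other for 8685 genes (78.7%). Calls were more frequent at higher levels, from 65.7% of 1686 genes under 5 CPM to 90.2% of 122 genes at 1000 CPM or more, while the median SE fell from 0.35 to 0.07.

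**Figure D1:**
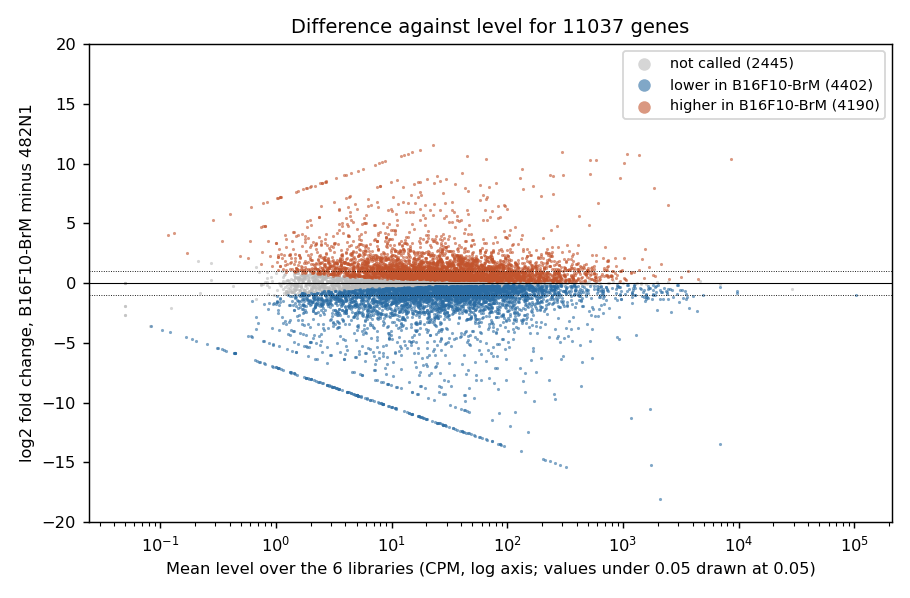
Each point is 1 of 11037 genes, with its mean level over the 6 libraries (CPM, log axis) against its log2 fold change (B16F10-BrM minus 482N1), coloured by the edgeR call. The 2086 and 2413 genes called and past the dotted lines (2-fold) spread over all levels, and the straight edges are genes with no count in 1 line.

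Genes of DNA replication and mitosis were higher in the melanoma line. DNA replication starts when the origin recognition complex, Cdc6 and Cdt1 load the MCM helicase on chromatin, and Pcna then clamps the polymerases to the template. Of this list, 41 of 47 members measured were higher and 2 lower, with a median log2 fold change of 1.57. Mcm2, an MCM subunit, stood at 23.5, 25.8 and 25.9 CPM in 482N1 and 176, 175 and 175 CPM in B16F10-BrM (log2 fold change 2.81 ± 0.10, adjusted p = 4.4e-30, edgeR). Pcna stood at 49.4, 50.1 and 51 CPM in 482N1 and 245, 224 and 270.4 CPM in B16F10-BrM (log2 fold change 2.30 ± 0.08, adjusted p = 4.8e-29, edgeR). In both genes every library of B16F10-BrM lay above every library of 482N1. The same held for Mcm10 (10 against 74.3 CPM, 2.88 ± 0.13), Orc2 (24 against 119.7 CPM, 2.31 ± 0.11), the primase subunit Prim2 (1.94 against 22.1 CPM, 3.51 ± 0.21) and the checkpoint mediator Clspn (8.79 against 66.6 CPM, 2.92 ± 0.13). The lower members were the GINS subunits Gins4 (40.6 against 27.8 CPM, -0.55 ± 0.11) and Gins2 (19.1 against 15.1 CPM, -0.33 ± 0.14), whereas Gins3 was higher (7.03 against 36.6 CPM, 2.38 ± 0.14). Gins2 is the weaker of the pair, and 1 member was lower when library A of 482N1, or library A or B of B16F10-BrM, was left out, and 1 also with upper-quartile scaling.

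Genes of nucleotide synthesis went in both directions. In this list 16 of 30 members measured were higher and 7 lower. Ribonucleotide reductase, which makes deoxynucleotides, was higher in its large subunit Rrm1 (56.5 against 179 CPM, 1.66 ± 0.08) and in the S-phase small subunit Rrm2 (3.80 against 162 CPM, 5.41 ± 0.13). Its p53-inducible small subunit Rrm2b was lower (13.8 against 9.40 CPM, -0.55 ± 0.19), a call lost without library B of 482N1 or library C of B16F10-BrM. The thymidylate genes Tyms (15.7 against 65.9 CPM, 2.07 ± 0.12) and Tk1 (63.5 against 205 CPM, 1.69 ± 0.09) were higher. Among purine enzymes Paics (554 against 297 CPM, -0.90 ± 0.07), Adss (152 against 42.6 CPM, -1.84 ± 0.08) and Impdh1 (44.7 against 9.39 CPM, -2.25 ± 0.13) were lower. Pfas (16.2 against 38.6 CPM, 1.25 ± 0.13), Adsl (31.1 against 73.4 CPM, 1.24 ± 0.10) and Atic (48.9 against 71.4 CPM, 0.55 ± 0.09) were higher.

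Among mitotic genes, which build the spindle, the kinetochore and condensed chromosomes, 42 of 48 members measured were higher and 3 lower, with a median log2 fold change of 1.0. Birc5 (survivin), a subunit of the chromosomal passenger complex, stood at 64.9, 59.1 and 61.2 CPM in 482N1 and 373, 379.5 and 362 CPM in B16F10-BrM (log2 fold change 2.59 ± 0.08, adjusted p = 2.5e-32, edgeR). The outer kinetochore genes Spc24 (14.1 against 86.7 CPM, 2.62 ± 0.11), Spc25 (39.9 against 144 CPM, 1.85 ± 0.09) and Nuf2 (10.8 against 56.1 CPM, 2.38 ± 0.13) were higher in every library. The lower members were securin, Pttg1 (148 against 65.3 CPM, -1.18 ± 0.08), the ubiquitin-conjugating enzyme of the anaphase-promoting complex, Ube2c (283 against 194 CPM, -0.54 ± 0.07), and the condensin subunit Smc4 (933 against 845 CPM, -0.14 ± 0.07), whose partner Smc2 was higher (149.5 against 495 CPM, 1.73 ± 0.07). The call of Smc4 was lost without library B or C of 482N1 and without library A or B of B16F10-BrM. Of the kinesin family, motor proteins of microtubules, 20 of 26 members measured were higher and 4 lower. Among them Kif15, a spindle motor, rose from 21.3 to 124 CPM and Kif21b, a motor found in neurons, from 2.36 to 39 CPM.

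The regulators of entry into S phase divided by paralogue. D-type cyclins activate Cdk4 and Cdk6 early in G1, and E-type cyclins activate Cdk2 later. Ccnd1 stood at 1109, 1113 and 978 CPM in 482N1 and 159, 163 and 157 CPM in B16F10-BrM (log2 fold change -2.74 ± 0.07, adjusted p = 1.8e-34, edgeR). Ccnd3 went the other way, with 94.8, 75.2 and 90.2 CPM in 482N1 and 514, 528 and 488 CPM in B16F10-BrM (log2 fold change 2.56 ± 0.08, adjusted p = 3.1e-31, edgeR). Neither pair of library sets overlapped, and Ccnd2 differed less (1320.3 against 1738 CPM, 0.40 ± 0.07). Cdk6 was lower (153 against 55 CPM, -1.48 ± 0.09). Cdk4 was nearly level (109 against 124 CPM, 0.18 ± 0.08), a call lost without library B or C of 482N1 or library A or B of B16F10-BrM. Cdk2 stood at 11.2, 8.18 and 8.75 CPM in 482N1 and 217, 192 and 195 CPM in B16F10-BrM (log2 fold change 4.43 ± 0.11, adjusted p = 1.4e-35, edgeR). Ccne1 (3.02 against 21.9 CPM, 2.86 ± 0.20) and Ccne2 (13.8 against 46.9 CPM, 1.77 ± 0.13) were higher, as was Skp2 (11.4 against 42.2 CPM, 1.89 ± 0.13), which marks the inhibitor Cdkn1b for degradation. Cdkn1b itself was lower (234 against 62.7 CPM, -1.90 ± 0.09). The other inhibitors measured were higher: Cdkn1a (121 against 294 CPM, 1.28 ± 0.19), Cdkn2c (3.52 against 17.6 CPM, 2.32 ± 0.21) and Cdkn2d (21.5 against 70.7 CPM, 1.71 ± 0.11).

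Several genes for repair by homologous recombination were higher in B16F10-BrM. Of the repair list, 39 of 60 members measured were higher and 12 lower. Exo1, the nuclease that resects broken ends, rose from 2.68 to 35 CPM (log2 fold change 3.71 ± 0.19, adjusted p = 1.8e-23, edgeR). Brca1 (11.3 against 48.9 CPM, 2.11 ± 0.13), Rad54l (3.30 against 20.9 CPM, 2.66 ± 0.21) and the checkpoint kinase Chek1 (5.47 against 30.8 CPM, 2.48 ± 0.16) were higher too. Lower members included the ultraviolet damage sensor genes Ddb1 (635 against 234 CPM, -1.44 ± 0.07) and Ddb2 (5.32 against 1.11 CPM, -2.24 ± 0.36) and the excision repair scaffold Xpa (84.4 against 23 CPM, -1.88 ± 0.11).

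RefSeq promoter windows (build GRCm38.p6, from 250 bases before to 50 after the start of the gene) were searched on both strands for short motifs. Those known from cell cycle and lysosomal genes are given here. AP-1, CRE, M-box, TEAD, NRF2 and ETS motifs and a variant E2F site were also searched, and most of their shares are not given. Windows were matched to 8379 of 10250 protein-coding genes tested. The CHR element, TTTGAA, bound by complexes that act on G2 and M phase genes, stood in 29 of 39 (74.4%) mitotic windows. Among windows of protein-coding genes tested it stood in 963 of 8379 (11.5%). Kinesins had it in 10 of 22 (45.5%) and histones in 9 of 21 (42.9%) windows. The CCAAT box, CCAAT, stood in 30 of 39 (76.9%) mitotic windows and 3310 of 8379 (39.5%) of the tested set. It was not particular to mitotic genes, with 18 of 21 (85.7%) windows of histones and 35 of 47 (74.5%) of folding genes of the endoplasmic reticulum. Other lists held it less often, such as autophagy with 7 of 32 (21.9%). An E2F site, TTTCCCGC, stood in 8 of 38 (21.1%) replication windows and 203 of 8379 (2.42%) of the tested set. An ETS site, CCGGAAGT, stood in 9 of 38 (23.7%) replication windows and 804 of 8379 (9.6%) of the tested set. That site was not particular to replication genes, with 14 of 45 (31.1%) windows of ribosome biogenesis factors, while 0 of 34 lysosomal windows held it. The letters of the CHR element, the CCAAT box and the E2F site do not overlap one another in the windows printed here. These show a pair of mitotic and a pair of replication genes that were higher in B16F10-BrM. A match describes the letters and not a bound site. Capitals mark the CCAAT box and the CHR element in Plk1, the mitotic kinase (window chr7:122159185-122159484, plus strand), and Spc25 (chr2:69206164-69206463, minus strand). In Cdc6 (chr11:98907901-98908200, plus strand) and Gins3 (chr8:95633309-95633608, plus strand) capitals mark the E2F site, read here on the other strand as GCGGGAAA, and other motifs are left in lower case. The 3′ end of each line lies 50 bases after the start of the gene.
Plk1: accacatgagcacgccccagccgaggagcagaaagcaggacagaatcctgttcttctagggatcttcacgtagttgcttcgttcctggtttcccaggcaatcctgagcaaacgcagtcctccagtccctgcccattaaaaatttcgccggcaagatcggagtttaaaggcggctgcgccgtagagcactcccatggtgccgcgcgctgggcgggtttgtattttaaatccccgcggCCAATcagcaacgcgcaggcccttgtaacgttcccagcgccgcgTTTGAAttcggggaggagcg
Spc25: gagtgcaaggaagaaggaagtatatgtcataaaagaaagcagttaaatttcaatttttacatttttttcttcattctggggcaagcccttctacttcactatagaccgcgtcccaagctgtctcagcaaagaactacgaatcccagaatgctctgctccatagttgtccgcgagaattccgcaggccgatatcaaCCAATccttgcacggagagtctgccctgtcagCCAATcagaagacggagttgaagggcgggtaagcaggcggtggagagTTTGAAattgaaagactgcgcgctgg
Cdc6: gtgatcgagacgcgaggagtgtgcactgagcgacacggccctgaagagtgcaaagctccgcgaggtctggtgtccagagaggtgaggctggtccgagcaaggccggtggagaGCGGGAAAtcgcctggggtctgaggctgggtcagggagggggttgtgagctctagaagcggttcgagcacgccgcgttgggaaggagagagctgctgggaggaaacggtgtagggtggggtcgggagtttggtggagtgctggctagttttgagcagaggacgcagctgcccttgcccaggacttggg
Gins3: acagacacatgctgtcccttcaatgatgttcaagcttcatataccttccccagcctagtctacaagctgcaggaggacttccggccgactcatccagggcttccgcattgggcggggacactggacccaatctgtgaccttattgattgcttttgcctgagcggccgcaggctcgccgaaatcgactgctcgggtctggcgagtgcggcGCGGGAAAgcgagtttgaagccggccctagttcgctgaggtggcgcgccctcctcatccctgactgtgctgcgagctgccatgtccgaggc
In the order printed, the levels were 3.23 and 129.8 CPM for Plk1 in 482N1 and B16F10-BrM, 39.9 and 144 CPM for Spc25, 3.27 and 41.7 CPM for Cdc6, and 7.03 and 36.6 CPM for Gins3.

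The machinery that handles chromatin and RNA in the nucleus did not move as a block. Of the enzymes that write and erase chromatin marks, 17 of 60 members measured were higher and 31 lower. Dnmt1, which maintains DNA methylation, stood at 40.5, 46 and 41.3 CPM in 482N1 and 271, 267 and 254 CPM in B16F10-BrM (log2 fold change 2.63 ± 0.09, adjusted p = 7.0e-31, edgeR). Uhrf1, which brings Dnmt1 to replicated DNA, stood at 20.8, 21.9 and 20.5 CPM in 482N1 and 121, 117 and 136 CPM in B16F10-BrM (log2 fold change 2.56 ± 0.10, adjusted p = 7.0e-28, edgeR). Both sets of libraries were apart. The de novo methyltransferases Dnmt3a (36.5 against 137 CPM, 1.91 ± 0.11) and Dnmt3b (0.504 against 7.99 CPM, 3.95 ± 0.36) and the demethylating oxidase Tet1 (2.25 against 23.6 CPM, 3.37 ± 0.23) were higher. Its relative Tet2 was lower (38.7 against 14.5 CPM, -1.41 ± 0.14). In Polycomb complex 2, which methylates histone H3, Ezh2 (224 against 530.0 CPM, 1.24 ± 0.07) and Suz12 (298 against 476 CPM, 0.67 ± 0.07) were higher. Lower members included the histone deacetylases Hdac7 (156 against 25.2 CPM, -2.63 ± 0.09), Hdac6 (47.7 against 9.73 CPM, -2.30 ± 0.14) and Hdac11 (33.5 against 7.13 CPM, -2.22 ± 0.17). The demethylases Kdm5b (153 against 38.1 CPM, -2.0 ± 0.09) and Kdm5c (57.1 against 19.1 CPM, -1.57 ± 0.12) were lower as well. Among remodelers, 14 of 32 members measured were higher and 9 lower, with the ATPase Smarca4 higher (288 against 451 CPM, 0.64 ± 0.07) and its paralogue Smarca2 lower (204 against 78.2 CPM, -1.38 ± 0.08). Linker histone H1f10 had no count in B16F10-BrM (4.90, 6.74 and 7.48 CPM in 482N1 and 0 CPM in every library of B16F10-BrM), while the replacement histone H2az1 was higher (640.3 against 1293 CPM, 1.01 ± 0.07).

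For splicing factors, 38 of 63 members measured were higher and 12 lower, with a median log2 fold change of 0.43. Among the serine- and arginine-rich factors, Srsf2 stood at 85.5, 101 and 83 CPM in 482N1 and 574, 575 and 623 CPM in B16F10-BrM (log2 fold change 2.71 ± 0.08, adjusted p = 1.2e-31, edgeR). Also higher were Srsf1 (41.5 against 166 CPM, 2.0 ± 0.09) and Srsf3 (105 against 337 CPM, 1.68 ± 0.08). The U2 snRNP subunit Sf3b5 stood at 1.29, 1.93 and 2.54 CPM in 482N1 and 70.3, 66.5 and 59.3 CPM in B16F10-BrM (log2 fold change 5.08 ± 0.16, adjusted p = 3.3e-31, edgeR). Its partners Sf3b2 (871 against 487 CPM, -0.84 ± 0.07) and Sf3b1 (294 against 225 CPM, -0.38 ± 0.08) were lower. The Sf3b5 difference was the widest in the list, and no library overlapped. Nuclear pore and transport genes showed 26 higher and 2 lower of 39. The pore membrane protein Nup210 stood at 3.74, 3.49 and 4.18 CPM in 482N1 and 54.4, 47.5 and 44.7 CPM in B16F10-BrM (log2 fold change 3.68 ± 0.17, adjusted p = 2.7e-25, edgeR). The GTPase Ran (301 against 776 CPM, 1.37 ± 0.07), its activator Rangap1 (141 against 577 CPM, 2.03 ± 0.08) and the importin Kpna2 (15.8 against 64.4 CPM, 2.03 ± 0.13) were higher, while Ipo7 was lower (179 against 87.7 CPM, -1.03 ± 0.08).

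The translation apparatus was divided between its parts. Cytosolic ribosomal protein genes were lower in the melanoma line. Apart from pseudogenes, 74 of 84 were lower in B16F10-BrM and 6 higher, with a median log2 fold change of -0.70. Rps12 stood at 5877, 5074 and 5404 CPM in 482N1 and 2392, 2661 and 2596 CPM in B16F10-BrM (log2 fold change -1.10 ± 0.07, adjusted p = 1.4e-19, edgeR). Its libraries did not overlap between the lines. Rplp1, part of the ribosomal stalk, went the other way with 2600.2, 2275 and 2371 CPM in 482N1 and 4798, 5028 and 4668 CPM in B16F10-BrM (log2 fold change 1.0 ± 0.07, adjusted p = 1.6e-18, edgeR). Together with ribosomal protein pseudogenes, of which 44 of 68 were lower, these genes took 14.3 ± 0.622% of counts in 482N1 and 10.3 ± 0.209% in B16F10-BrM. Without ribosomal RNA genes in the total the shares were 17.2 ± 0.477% of counts in 482N1 and 11.5 ± 0.110% in B16F10-BrM, lower in every B16F10-BrM library under both totals. Pseudogenes share sequence with their parent genes, and the deposited counts may split reads between them.

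By contrast, 33 of 54 ribosome biogenesis factors were higher and 9 lower. Bop1, needed for the large subunit, rose from 15.8 to 60 CPM (log2 fold change 1.93 ± 0.12, adjusted p = 6.9e-19, edgeR). Ddx21 (134 against 394 CPM, 1.56 ± 0.08) and Nhp2 (50.4 against 129.5 CPM, 1.36 ± 0.09) were higher, whereas the nucleolar chaperone Npm1 was lower (3822 against 1997 CPM, -0.94 ± 0.07). Aminoacyl-tRNA synthetases had 14 higher and 6 lower of 20. Wars (16.8 against 50.5 CPM, 1.59 ± 0.12), Aars (42.8 against 107 CPM, 1.32 ± 0.10) and Nars (214 against 501 CPM, 1.22 ± 0.07) were higher and Qars was lower (201 against 94.6 CPM, -1.08 ± 0.08). Of mitochondrial ribosomal proteins, 41 of 76 were higher and 20 lower, Mrps12 among the former (12 against 61.8 CPM, 2.36 ± 0.13) and Mrpl45 among the latter (198 against 76.9 CPM, -1.37 ± 0.08). Translation factors were near even, 22 higher and 16 lower of 50.

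**Figure D2:**
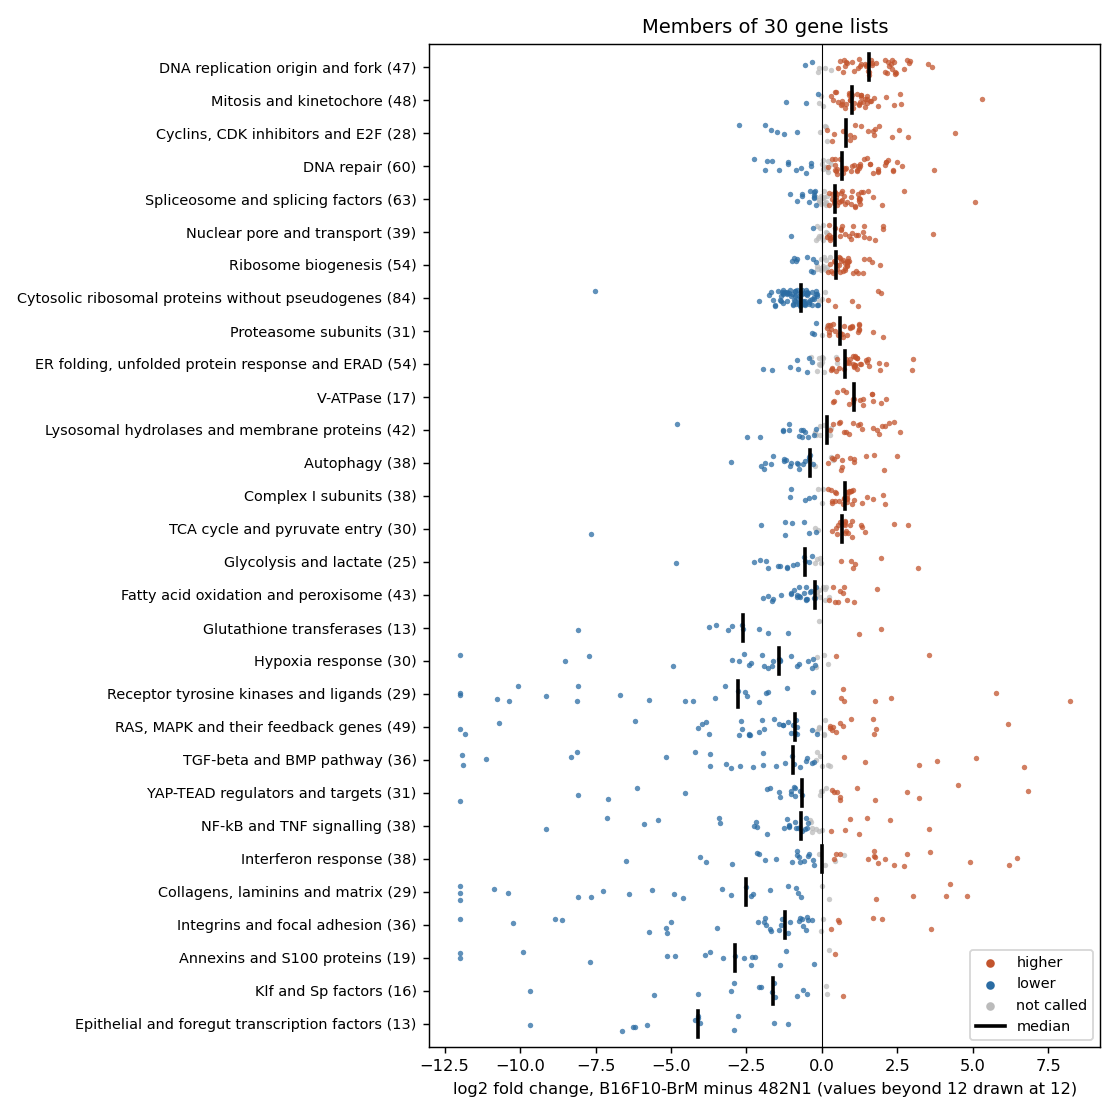
Each point is a member of the gene list named at left (number of members tested in brackets), placed at its log2 fold change (B16F10-BrM minus 482N1), with the list median as a black bar. Replication, mitosis, proteasome, V-ATPase and Complex I lie to the right of 0, and ribosomal proteins, hypoxia, receptor ligand, matrix, annexin and Klf lists to the left.

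Genes for protein disposal and for folding in the endoplasmic reticulum were higher in B16F10-BrM. The proteasome degrades proteins tagged with ubiquitin, and 25 of 31 subunits were higher and 3 lower. Psmd8, a lid subunit, stood at 141, 131 and 122 CPM in 482N1 and 518, 547 and 534 CPM in B16F10-BrM (log2 fold change 2.02 ± 0.07, adjusted p = 7.8e-29, edgeR). The base ATPases Psmc5 (54.8 against 178 CPM, 1.70 ± 0.09), Psmc2 (75.6 against 179 CPM, 1.24 ± 0.08) and Psmc1 (294 against 694 CPM, 1.24 ± 0.08) and the catalytic subunit Psmb5 (89.2 against 208 CPM, 1.22 ± 0.08) were higher. The lower members were Psmd4 (409 against 325 CPM, -0.33 ± 0.07), Psma5 (42.2 against 35.2 CPM, -0.26 ± 0.12) and Psmb1 (288 against 249 CPM, -0.21 ± 0.07). The call of Psma5 was lost without library B or C of 482N1 or library B of B16F10-BrM. With upper-quartile scaling, or with library B as the only library of 482N1 and of E0771-BrM, 1 member was lower. Subunits together took 0.462 ± 0.00918% of counts in 482N1 and 0.866 ± 0.0122% in B16F10-BrM, with no overlap between libraries (2-sided exact permutation p = 0.1, the smallest that 3 against 3 libraries allow).

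In the endoplasmic reticulum, 34 of 54 genes for folding, the unfolded protein response and protein disposal were higher and 8 lower. Dnajc3, a co-chaperone that holds back the stress kinase PERK, stood at 54.4, 54 and 50.6 CPM in 482N1 and 424, 422 and 449 CPM in B16F10-BrM (log2 fold change 3.02 ± 0.08, adjusted p = 1.0e-34, edgeR). Sdf2l1 stood at 6.32, 5.90 and 7.10 CPM in 482N1 and 56.6, 45.7 and 52.1 CPM in B16F10-BrM (log2 fold change 3.0 ± 0.14, adjusted p = 3.1e-24, edgeR). All 3 libraries of B16F10-BrM were above those of 482N1 in both genes. Hyou1 (30.4 against 115 CPM, 1.92 ± 0.09), Dnajb11 (18.3 against 80.1 CPM, 2.13 ± 0.10), Atf4 (258 against 580.0 CPM, 1.17 ± 0.08) and the translocon subunit Sec61b (85.3 against 245 CPM, 1.52 ± 0.08) were higher. The stress sensor Ern1 (19.5 against 10.9 CPM, -0.83 ± 0.13), the oxidase Ero1a (601 against 189 CPM, -1.67 ± 0.34) and the phosphatase subunit Ppp1r15a (14.9 against 3.88 CPM, -1.94 ± 0.20) were lower. Cytosolic heat shock proteins were split by isoform: Hsp90aa1 was higher (1057 against 3198 CPM, 1.60 ± 0.07) and Hsp90ab1 lower (11970.4 against 7372 CPM, -0.70 ± 0.07). The lens and muscle chaperone Cryab stood at 1.42, 1.56 and 2.92 CPM in 482N1 and 171, 184 and 199 CPM in B16F10-BrM (log2 fold change 6.54 ± 0.15, adjusted p = 2.9e-37, edgeR). Hspb1 was lower (182 against 31.1 CPM, -2.55 ± 0.10).

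The proton pump of lysosomes and related organelles, the V-ATPase, was higher throughout, in 17 of 17 subunits and accessory proteins measured, of 22 listed. Its membrane ring subunit Atp6v0c stood at 451, 326 and 351 CPM in 482N1 and 1771, 1751 and 1437 CPM in B16F10-BrM (log2 fold change 2.14 ± 0.13, adjusted p = 1.4e-08, edgeR). The stalk subunit Atp6v1d stood at 88.4, 82.9 and 98.9 CPM in 482N1 and 322, 365 and 356 CPM in B16F10-BrM (log2 fold change 1.95 ± 0.08, adjusted p = 1.0e-26, edgeR). The smallest difference of the list was that of Atp6ap1 (115 against 146 CPM, 0.36 ± 0.08). Lysosomal enzymes and membrane proteins were split, with 19 of 42 higher and 15 lower. The heparan sulfate degrading enzymes Sgsh (4.75 against 28.5 CPM, 2.58 ± 0.18) and Naglu (25 against 117 CPM, 2.23 ± 0.11) and the membrane protein Cd63 (323 against 1383 CPM, 2.10 ± 0.07) were higher. The proteases Ctsh (113 against 4.07 CPM, -4.81 ± 0.15) and Ctsl (231 against 94.3 CPM, -1.29 ± 0.08) and the ceramidase Asah1 (139 against 24.7 CPM, -2.49 ± 0.10) were lower. The letters TCACGTG, the core of the CLEAR element of lysosomal genes, stood in 8 of 34 (23.5%) lysosomal windows and in 554 of 8379 (6.61%) of those of protein-coding genes tested. The window of Sgsh, an enzyme that removes sulfate from heparan sulfate, is printed as an example (chr11:119355461-119355760, minus strand), with the match in capitals on the other strand as CACGTGA.
Sgsh: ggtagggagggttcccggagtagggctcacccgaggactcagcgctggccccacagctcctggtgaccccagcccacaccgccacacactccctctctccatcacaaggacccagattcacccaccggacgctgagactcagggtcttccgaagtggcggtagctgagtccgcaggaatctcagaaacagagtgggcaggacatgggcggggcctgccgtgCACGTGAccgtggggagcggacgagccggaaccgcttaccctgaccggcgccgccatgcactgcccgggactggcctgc
Autophagy genes leaned the other way, with 14 higher and 20 lower of 38. Lower members of the autophagosome tag family were Map1lc3a (31.7 against 9.84 CPM, -1.68 ± 0.15), Map1lc3b (271 against 119.8 CPM, -1.18 ± 0.08), Gabarapl1 (143 against 59.2 CPM, -1.27 ± 0.08) and Gabarap (138 against 79.7 CPM, -0.79 ± 0.09). The cargo receptor Sqstm1 was higher (323 against 619 CPM, 0.94 ± 0.07).

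**Figure D3:**
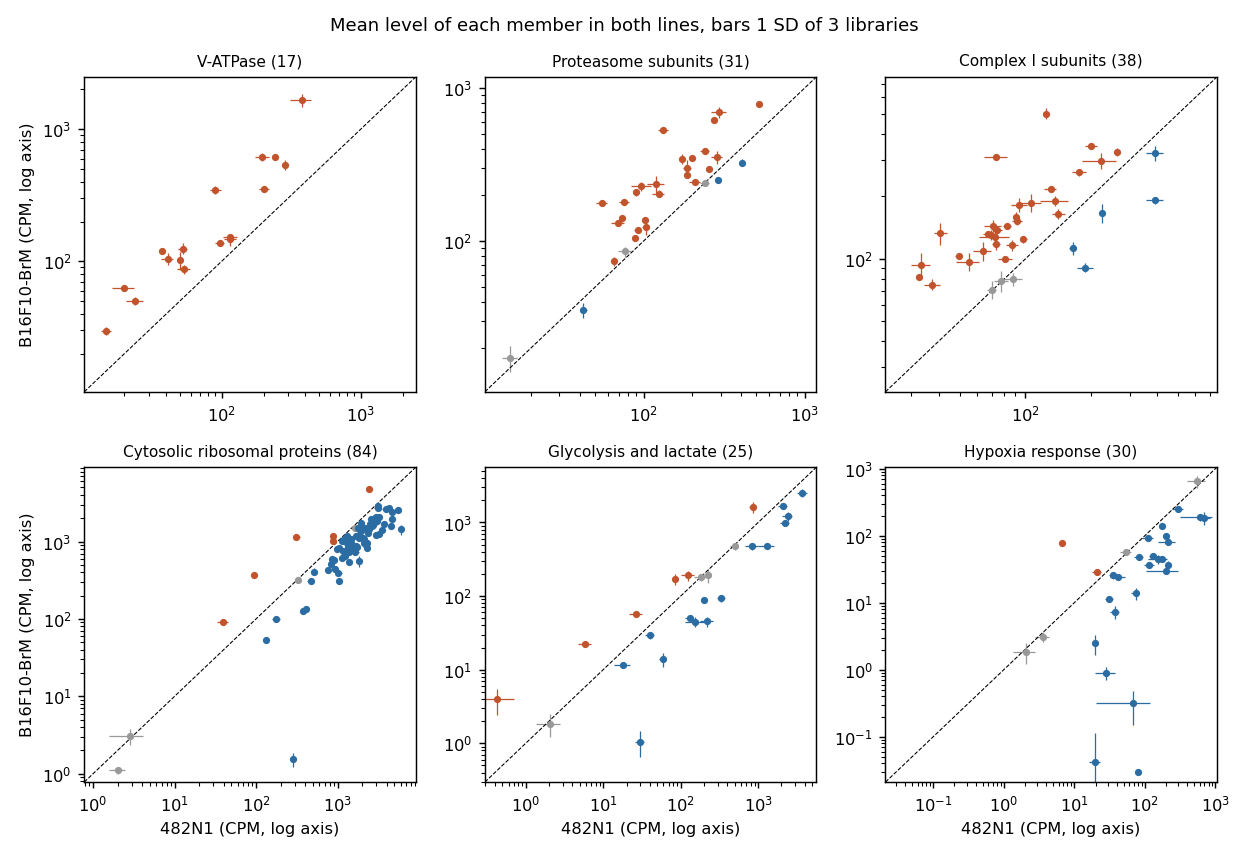
Mean level of each member in 482N1 (x axis) and B16F10-BrM (y axis), in CPM on log axes, for 6 lists, with bars of 1 SD of 3 libraries and a dashed line of equal level; a level of 0 is drawn at 0.03. All 17 V-ATPase members lie above the line, most cytosolic ribosomal proteins below it, and the hypoxia list reaches down to 0 (Angptl4).

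Respiratory chain genes were mostly higher in B16F10-BrM, and more genes of the glycolysis and lactate list were lower than higher. Complex I, the entry point of the respiratory chain, had 30 of 38 nuclear-encoded subunits higher and 5 lower in B16F10-BrM. Ndufa12 stood at 64, 81.5 and 74.8 CPM in 482N1 and 315, 306 and 308 CPM in B16F10-BrM (log2 fold change 2.07 ± 0.08, adjusted p = 1.0e-27, edgeR). Ndufa5 stood at 120.1, 124 and 128 CPM in 482N1 and 513, 523 and 467 CPM in B16F10-BrM (log2 fold change 2.01 ± 0.08, adjusted p = 1.9e-28, edgeR). Neither gene overlapped between lines, and Ndufa6 was lower (393 against 191 CPM, -1.04 ± 0.08). Of Complex III and IV subunits 13 were higher and 5 lower of 21, led by Uqcrq (165 against 583 CPM, 1.82 ± 0.07) and Cox5b (104 against 369.9 CPM, 1.82 ± 0.08). Cox7a1, a subunit found in muscle, was lower (18.4 against 0.656 CPM, -4.71 ± 0.31). ATP synthase had 12 higher and 1 lower of 17, and 3 were lower when library A of B16F10-BrM was left out. The carrier of electrons Cycs was higher (44.9 against 313 CPM, 2.80 ± 0.08). Genes encoded on the mitochondrial genome itself were near even, 4 higher and 3 lower of 12, with a median of 0.05 that turned to -0.03 when library B was the only library of 482N1 and of E0771-BrM. Of those, 2 were higher without library A or B of 482N1, and 1 was lower without library C of 482N1 or B of B16F10-BrM.

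In the list of the citric acid cycle and pyruvate entry, 20 of 30 genes were higher and 8 lower. The mitochondrial pyruvate carrier subunit Mpc1 stood at 5.80, 6.38 and 7.99 CPM in 482N1 and 49.5, 41.3 and 54.3 CPM in B16F10-BrM (log2 fold change 2.85 ± 0.14, adjusted p = 5.8e-23, edgeR). The iron-sulfur subunit of succinate dehydrogenase, Sdhb, stood at 187, 172 and 169 CPM in 482N1 and 880.1, 978 and 874 CPM in B16F10-BrM (log2 fold change 2.37 ± 0.08, adjusted p = 2.3e-31, edgeR). Both were higher in every B16F10-BrM library. Ogdh was higher (46.2 against 113 CPM, 1.29 ± 0.09), while its relative Ogdhl fell from 41.6 to 0.197 CPM (log2 fold change -7.66 ± 0.27, adjusted p = 1.2e-29, edgeR). The glycolysis and lactate list had 6 higher and 15 lower of 25. It holds more than glycolytic enzymes, among them the glucose transporter Slc2a1 and the kinases Pdk1 and Pdk2 given below. Gapdh stood at 1278, 998 and 1615 CPM in 482N1 and 507, 454 and 464 CPM in B16F10-BrM (log2 fold change -1.45 ± 0.15, adjusted p = 1.7e-05, edgeR). Ldha, which makes lactate, stood at 2153, 1929.5 and 2553 CPM in 482N1 and 1063, 1032 and 896 CPM in B16F10-BrM (log2 fold change -1.15 ± 0.08, adjusted p = 4.7e-16, edgeR). The genes of this list together took 1.40 ± 0.193% of counts in 482N1 and 1.13 ± 0.124% in B16F10-BrM, with libraries that overlapped (2-sided exact permutation p = 0.2). Without ribosomal RNA genes in the total they did not overlap, with 1.68 ± 0.220% of counts in 482N1 and 1.26 ± 0.125% in B16F10-BrM (p = 0.1, exact permutation, the smallest possible here). Hexokinases divided, Hk1 lower (336 against 93.6 CPM, -1.84 ± 0.09) and Hk2 higher (125 against 192 CPM, 0.62 ± 0.13), and the pyruvate kinase gene Pkm was higher (847 against 1640.3 CPM, 0.95 ± 0.11). Glucose transporter Slc2a1 was lower (155 against 44.7 CPM, -1.80 ± 0.22) and Slc2a3 higher (5.79 against 22.7 CPM, 1.96 ± 0.17). The lactate exporter Slc16a3 was higher (83.3 against 170.1 CPM, 1.03 ± 0.09) and Slc16a1, which carries lactate both ways, lower (201 against 89.6 CPM, -1.17 ± 0.08). The kinases that switch off pyruvate dehydrogenase, Pdk1 (130.5 against 50.2 CPM, -1.38 ± 0.10), Pdk2 (29.9 against 1.06 CPM, -4.83 ± 0.24) and Pdk3 (39.9 against 29.5 CPM, -0.44 ± 0.11), were lower.

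Hypoxia response genes, many of which are targets of the factor HIF, showed 2 higher and 24 lower of 30, with a median log2 fold change of -1.41. Angptl4, a secreted inhibitor of lipoprotein lipase, stood at 82.5, 80.4 and 79.9 CPM in 482N1 and 0 CPM in every library of B16F10-BrM, at least 706-fold lower with 3 counts over the whole group taken as the bound for none. Adm, a vasodilator peptide, stood at 57.4, 26.5 and 121 CPM in 482N1 and 0.208, 0.502 and 0.233 CPM in B16F10-BrM (log2 fold change -7.73 ± 1.15, adjusted p = 7.2e-04, edgeR). Vegfa, the main growth factor of blood vessels, stood at 146, 168 and 209.6 CPM in 482N1 and 43.3, 48.6 and 41.7 CPM in B16F10-BrM (log2 fold change -1.97 ± 0.11, adjusted p = 3.7e-18, edgeR). The libraries of the lines were apart in all 3 genes, but the 482N1 libraries differed among themselves, with library C the highest of the 3 in Adm and Vegfa, and in Gapdh and Ldha above. With library B as the only library of 482N1 and of E0771-BrM 21 members were lower and the median was -1.12, and without library C the values were 22 and -1.27. Bnip3 (697 against 184 CPM, -1.92 ± 0.22), Ndrg1 (202 against 30.2 CPM, -2.74 ± 0.36) and the oxygen sensors Egln1 (212 against 81.2 CPM, -1.38 ± 0.19) and Egln3 (19.7 against 2.50 CPM, -2.98 ± 0.19) were lower, as was Hif1a itself (199 against 98.3 CPM, -1.02 ± 0.08). The higher members were Plod1, a collagen lysine hydroxylase (6.76 against 78.8 CPM, 3.54 ± 0.13), and Vhl (20.8 against 28.4 CPM, 0.45 ± 0.13). Slc2a1, Pdk1 and Pfkfb4 of this list are also in the glycolysis list, and Ero1a is in the list of folding genes.

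Glutathione transferases attach glutathione to reactive compounds. They had 2 higher and 10 lower of 13, with a median log2 fold change of -2.63. Mgst2 stood at 119, 110.1 and 126 CPM in 482N1 and 0.417, 0.627 and 0.233 CPM in B16F10-BrM (log2 fold change -8.09 ± 0.19, adjusted p = 2.8e-37, edgeR). Gsto1 stood at 221, 194 and 199.9 CPM in 482N1 and 22.6, 22 and 26.3 CPM in B16F10-BrM (log2 fold change -3.12 ± 0.09, adjusted p = 4.6e-33, edgeR). Gsta4 (158 against 13.9 CPM, -3.50 ± 0.10) and Gstm1 (150.3 against 43.4 CPM, -1.79 ± 0.10) were lower too, and Gstm2 was higher (13.2 against 51.2 CPM, 1.96 ± 0.13). In the wider list of glutathione, thioredoxin and NRF2 target genes 10 were higher and 21 lower of 37. The glutathione genes Gclm (105 against 38.3 CPM, -1.45 ± 0.09), Gss (42.9 against 12 CPM, -1.84 ± 0.13), Gsr (31.3 against 10.8 CPM, -1.53 ± 0.14) and Gpx1 (292 against 94.9 CPM, -1.62 ± 0.08) were lower. The thioredoxin genes Txn1 (207 against 447 CPM, 1.11 ± 0.12), Txnrd1 (115 against 247 CPM, 1.10 ± 0.08) and Prdx1 (619 against 1277 CPM, 1.04 ± 0.07) were higher. The factor Nfe2l2 (NRF2) was not called (225 against 218 CPM, -0.05 ± 0.07). Both metallothioneins measured, which bind zinc and copper, were higher. Mt2 stood at 26.4, 17.8 and 38 CPM in 482N1 and 417, 399 and 327 CPM in B16F10-BrM (log2 fold change 3.80 ± 0.24, adjusted p = 4.0e-06, edgeR). Mt1 stood at 254, 175 and 348 CPM in 482N1 and 1106, 1202 and 976 CPM in B16F10-BrM (log2 fold change 2.08 ± 0.24, adjusted p = 1.8e-04, edgeR). Malic enzyme Me1, a source of NADPH, fell from 603 to 45 CPM (log2 fold change -3.75 ± 0.09, adjusted p = 4.6e-37, edgeR).

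Across the list of iron, haem and ferroptosis genes 14 were higher and 10 lower of 29. The transferrin receptor Tfrc stood at 17.2, 20.2 and 25.5 CPM in 482N1 and 215, 196 and 201 CPM in B16F10-BrM (log2 fold change 3.28 ± 0.10, adjusted p = 2.0e-32, edgeR). The metal transporter Slc11a2 stood at 5.29, 4.45 and 4.69 CPM in 482N1 and 60.1, 63.9 and 68.6 CPM in B16F10-BrM (log2 fold change 3.74 ± 0.14, adjusted p = 9.4e-29, edgeR). Steap3, which reduces iron in endosomes, was higher (4.81 against 29.7 CPM, 2.62 ± 0.17), and Ncoa4, the receptor for ferritin breakdown, lower (89.3 against 14.9 CPM, -2.57 ± 0.16). In the list of serine, glycine and one-carbon metabolism 11 were higher and 4 lower of 23. Of the mitochondrial one-carbon enzymes, Mthfd2 (51.4 against 261 CPM, 2.34 ± 0.09), Shmt2 (28.9 against 119.9 CPM, 2.05 ± 0.09) and Aldh1l2 (4.70 against 20.7 CPM, 2.14 ± 0.16) were higher. Mthfd2l (12.7 against 0.521 CPM, -4.63 ± 0.31) and the glycine cleavage protein Gcsh (65.4 against 21.9 CPM, -1.58 ± 0.11) were lower. The serine synthesis genes Phgdh (166 against 167 CPM, 0.00 ± 0.08) and Psat1 (118 against 127 CPM, 0.11 ± 0.08) were not called. Amino acid transport and stress response genes had 10 higher and 11 lower of 25. The carriers Slc7a5 (2.71 against 31.9 CPM, 3.55 ± 0.18), Slc7a1 (50.2 against 244 CPM, 2.28 ± 0.08) and Slc38a1 (80.3 against 276 CPM, 1.78 ± 0.08) were higher. The cystine carrier Slc7a11 (16.4 against 7.99 CPM, -1.03 ± 0.18) and the glycine carrier Slc6a9 (12.3 against 4.07 CPM, -1.59 ± 0.19) were lower, and Slc7a3, a carrier of cationic amino acids, had 183 counts in 482N1 and 2 in B16F10-BrM.

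Lipid pathways were mixed. The list of fatty acid and lipid synthesis had 13 higher and 14 lower of 35. Fasn, fatty acid synthase, was higher (126 against 330.2 CPM, 1.39 ± 0.13), as was the desaturase Fads2 (29.1 against 83.1 CPM, 1.51 ± 0.10). Fads3 fell from 65.6 to 0.146 CPM and Scd1 was lower (213 against 88 CPM, -1.28 ± 0.08). The acyl-CoA synthetases Acsl4 (119.9 against 23.6 CPM, -2.35 ± 0.10) and Acsl5 (205 against 37.7 CPM, -2.44 ± 0.09) were lower. In the list of fatty acid oxidation and peroxisome genes 10 were higher and 23 lower of 43, and 6 were higher without library C of 482N1 or library B of B16F10-BrM. Cpt1a, the gate of fatty acid entry, was lower (63.3 against 16.4 CPM, -1.95 ± 0.12), and the coactivator Ppargc1a higher (33.1 against 118 CPM, 1.83 ± 0.10). The sphingomyelin synthase Sgms2 had 4102 counts in 482N1 and 2 in B16F10-BrM, a ratio of 2239.6 (95% counting interval 619.6 to 18499) of 482N1 over B16F10-BrM. The sphingosine kinase Sphk1 rose from 0.618 to 9.94 CPM (log2 fold change 3.96 ± 0.35, adjusted p = 2.9e-14, edgeR).

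**Figure D4:**
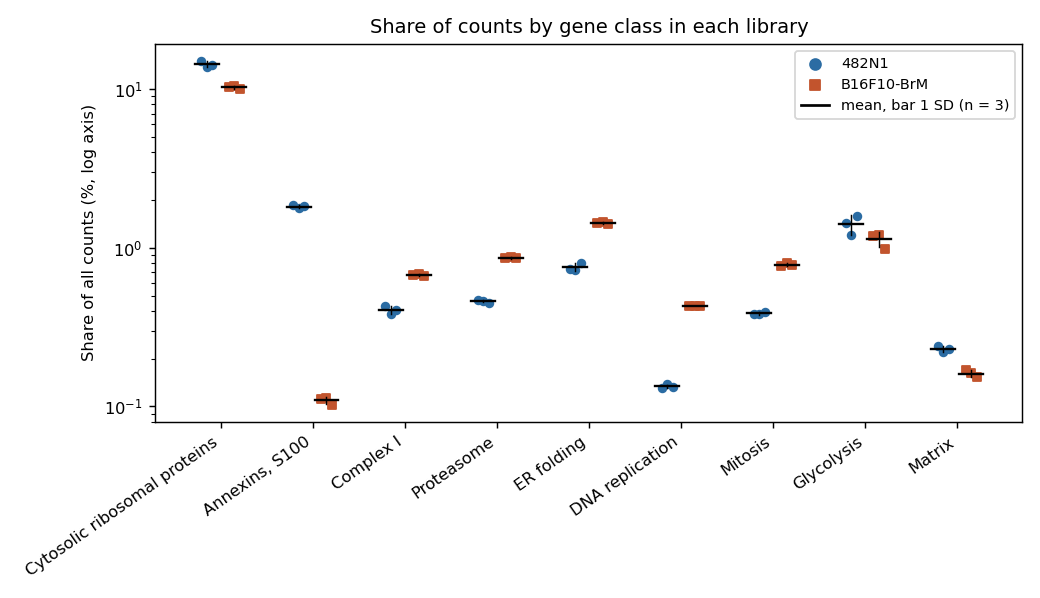
Share of all counts (%, log axis) taken by the genes of 9 classes in each of the 6 libraries, with the mean and 1 SD of 3 libraries. Ribosomal proteins fall from 14.3 to 10.3%, and proteasome, ER folding, Complex I, replication and mitosis genes are higher in B16F10-BrM, with no overlap between lines in these classes.

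Most receptor tyrosine kinase and ligand genes measured were lower in the melanoma line. Receptor tyrosine kinases and their ligands had 7 higher and 22 lower of 29 measured, of 70 listed, with a median log2 fold change of -2.80. The ligands of the EGF receptor were lower together. Btc stood at 107, 126 and 109 CPM in 482N1 and 0 CPM in every library of B16F10-BrM (at least 995-fold lower). Areg stood at 69.5, 83.9 and 69.2 CPM in 482N1 and 0 CPM in every library of B16F10-BrM (at least 647-fold lower). Ereg stood at 20, 21.8 and 18.1 CPM in 482N1 and 0 CPM in every library of B16F10-BrM (at least 174-fold lower). Hbegf, the other ligand of this receptor measured, stood at 349.9, 337 and 292 CPM in 482N1 and 6.25, 7.53 and 4.78 CPM in B16F10-BrM (log2 fold change -5.72 ± 0.12, adjusted p = 1.2e-39, edgeR). No B16F10-BrM library held a count of the first 3 genes. The receptor genes were lower as well, Egfr with 133 counts in 482N1 and 1 in B16F10-BrM and Erbb2 at lower levels (23.2 against 3.98 CPM, -2.55 ± 0.19), while Erbb3 was higher (9.01 against 14.8 CPM, 0.72 ± 0.20), a call lost with library B as the only library of 482N1 and of E0771-BrM.

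Other receptors went in both directions. Axl, a receptor of the TAM family, stood at 494, 458 and 431 CPM in 482N1 and 1.15, 2.76 and 1.28 CPM in B16F10-BrM (log2 fold change -8.08 ± 0.15, adjusted p = 1.1e-36, edgeR). Its relative Mertk was lower (10.8 against 0.546 CPM, -4.29 ± 0.31) and Tyro3 higher (9.32 against 14.4 CPM, 0.63 ± 0.16). Kitl, the ligand that melanocytes need for survival, was high in the lung line with 263, 302 and 297 CPM in 482N1 and 0.625, 0.376 and 0.466 CPM in B16F10-BrM (log2 fold change -9.13 ± 0.16, adjusted p = 6.1e-42, edgeR). Igf1r (177 against 19.2 CPM, -3.20 ± 0.10) and Insr (28.3 against 6.66 CPM, -2.09 ± 0.16) were lower and Igf2r higher (34.7 against 117 CPM, 1.76 ± 0.10). Met, the receptor of hepatocyte growth factor, stood at 119, 129 and 125 CPM in 482N1 and 580.3, 655 and 581 CPM in B16F10-BrM (log2 fold change 2.29 ± 0.08, adjusted p = 1.0e-30, edgeR). The collagen receptor Ddr2 stood at 0.387, 0 and 0.761 CPM in 482N1 and 117, 122 and 109.8 CPM in B16F10-BrM (log2 fold change 8.22 ± 0.20, adjusted p = 6.6e-36, edgeR). The libraries of the lines did not overlap in Met or Ddr2, and Ddr1, the other collagen receptor of its kind, was lower (118 against 52.7 CPM, -1.16 ± 0.09).

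Downstream of these receptors, RAS and MAPK genes with their feedback inhibitors had 12 higher and 31 lower of 49. Several transcripts known to rise when ERK is active were lower, among them Dusp6 at 288, 305 and 277 CPM in 482N1 and 50.2, 40.8 and 48 CPM in B16F10-BrM (log2 fold change -2.64 ± 0.09, adjusted p = 4.7e-28, edgeR). Etv5 (47.3 against 2.76 CPM, -4.09 ± 0.17) and Spry4 (6.29 against 0.460 CPM, -3.73 ± 0.36) were lower, and Fosl1 had 1328 counts in 482N1 and 0 in B16F10-BrM. Phlda1, often counted with the same group, was higher (298 against 373 CPM, 0.33 ± 0.07), and so was Braf (31.6 against 61.4 CPM, 0.96 ± 0.10). In the PI3K pathway the AKT kinases divided, Akt1 at 72.2, 74.1 and 69.1 CPM in 482N1 and 338, 282 and 281 CPM in B16F10-BrM (log2 fold change 2.06 ± 0.08, adjusted p = 2.5e-27, edgeR). The libraries were apart for Akt1. Akt2 was lower (84.7 against 71.3 CPM, -0.25 ± 0.09) with overlapping libraries, a call lost without library A of 482N1 or library A or C of B16F10-BrM. Over the whole PI3K list 13 were higher and 18 lower of 42, with a median of -0.05 whose sign turned under upper-quartile scaling. Deptor, an inhibitor of mTOR, was higher (19.1 against 131 CPM, 2.77 ± 0.10), as was Rragd (0.334 against 11.5 CPM, 5.04 ± 0.34), a GTPase that brings mTOR to lysosomes.

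TGF-beta and BMP signalling genes had 6 higher and 24 lower of 36. The ligands Inhba (59.1, 57.7 and 60.5 CPM in 482N1 and 0 CPM in every library of B16F10-BrM, at least 515-fold lower), Bmp4 (at least 503-fold lower) and Bmp7 (at least 296-fold lower) had no count in B16F10-BrM. The target gene Id1 stood at 192, 205 and 183 CPM in 482N1 and 0.521, 1.13 and 0.466 CPM in B16F10-BrM (log2 fold change -8.10 ± 0.17, adjusted p = 2.1e-39, edgeR). Id3 was lower (112 against 5.99 CPM, -4.22 ± 0.12), whereas Id2 was not called (365 against 368 CPM, 0.01 ± 0.07). Smad7, the inhibitory Smad, was lower (41.8 against 4.55 CPM, -3.20 ± 0.17), as were Smad3 (142 against 29.4 CPM, -2.27 ± 0.09) and the latency protein Ltbp1 (152 against 0.441 CPM, -8.33 ± 0.19). Tgfb1 was lower (21.3 against 1.56 CPM, -3.72 ± 0.28) and Tgfb2 higher (1.89 against 17.5 CPM, 3.21 ± 0.22). The co-receptor Eng rose from 1.75 to 61 CPM (log2 fold change 5.11 ± 0.18, adjusted p = 1.9e-29, edgeR). Eng is also in the endothelial marker list, of which 3 of 11 genes were measured with a summed level of 91.6 to 106 CPM in 482N1 and 62.6 to 75.1 CPM in B16F10-BrM. These sums hide opposite directions, as 2 of the 3 were higher in B16F10-BrM and 1 lower. The lower one had 2242 counts in 482N1 and 1 in B16F10-BrM. The part of other cells in this result was not tested.

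The Wnt pathway had 11 higher and 14 lower of 32. The ligands Wnt7b (192, 146 and 177 CPM in 482N1 and 0 CPM in every library of B16F10-BrM, at least 1496-fold lower) and Wnt5a (70, 67.6 and 67.4 CPM in 482N1 and 0 CPM in every library of B16F10-BrM, at least 596-fold lower) had no count in B16F10-BrM. The acyltransferase Porcn that prepares Wnt proteins for secretion was lower (32 against 0.229 CPM, -7.03 ± 0.37). The receptor genes Lgr6 (110.2 against 6.49 CPM, -4.07 ± 0.13) and Fzd5 (15.5 against 1.39 CPM, -3.48 ± 0.24) were lower and Fzd3 (1.63 against 10.3 CPM, 2.65 ± 0.28) higher, and beta-catenin, Ctnnb1, was higher (632 against 939.6 CPM, 0.57 ± 0.07). In the Notch pathway the ligand Jag1 (158 against 4.51 CPM, -5.11 ± 0.13), the receptor Notch1 (11.1 against 0.641 CPM, -4.07 ± 0.32) and the target Hes1 (117 against 1.96 CPM, -5.90 ± 0.16) were lower. Psen2, a protease subunit that cleaves Notch, was higher (19.1 against 242 CPM, 3.66 ± 0.09). The Hedgehog co-receptor Boc had no count in 482N1 (0 CPM in every library of 482N1 and 13.6, 16.2 and 13.2 CPM in B16F10-BrM, at least 114-fold higher).

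Several targets of YAP and TEAD, factors that respond to cell spreading and stiffness, were lower, whereas Yap1 itself was slightly higher (50 against 66 CPM, 0.40 ± 0.10). Ankrd1 stood at 582, 618 and 509 CPM in 482N1 and 0 CPM in every library of B16F10-BrM (at least 4965-fold lower). Ccn2 stood at 165, 164 and 157 CPM in 482N1 and 1.25, 0.627 and 1.63 CPM in B16F10-BrM (log2 fold change -7.08 ± 0.16, adjusted p = 1.4e-37, edgeR). Ccn1 was lower (14.5 against 0.600 CPM, -4.53 ± 0.31). The partner Wwtr1 (TAZ) was lower (275 against 84.3 CPM, -1.71 ± 0.08), and Amotl1 (121 against 413 CPM, 1.77 ± 0.08) and Ptpn14 (21.1 against 147 CPM, 2.81 ± 0.10), which restrain YAP, were higher. In the whole list 11 were higher and 16 lower of 31.

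Immune and stress signals were divided. NF-kB and TNF genes had 7 higher and 23 lower of 38. Nfkbiz (30.5 against 2.86 CPM, -3.40 ± 0.19) and Nfkb2 (78.6 against 34.9 CPM, -1.17 ± 0.09) were lower, and Traf3 (13.6 against 65.8 CPM, 2.27 ± 0.11) and Nfkbie (1.45 against 17.1 CPM, 3.54 ± 0.25) higher. Interferon response genes were even in number, 16 higher and 18 lower of 38, with a median near 0 whose sign depended on the scaling. The antiviral effector Ifitm3 stood at 0.645, 0.361 and 0.380 CPM in 482N1 and 40.6, 31.5 and 32.7 CPM in B16F10-BrM (log2 fold change 6.21 ± 0.22, adjusted p = 1.3e-29, edgeR). The effector Ifit2 (4.41 against 16.1 CPM, 1.87 ± 0.22) and the DNA sensor Cgas (2.0 against 24.2 CPM, 3.59 ± 0.20) were higher. The receptor chain Ifngr1 (56.7 against 12.7 CPM, -2.16 ± 0.12), Jak2 (101 against 12.8 CPM, -2.97 ± 0.13), Irf9 (22.2 against 6.03 CPM, -1.89 ± 0.16) and Isg20 (129 against 1.44 CPM, -6.49 ± 0.18) were lower. Immune cell markers were at low levels, with 2 of 16 listed genes measured (Cd68 and Cd14) and a summed level of 24.7 to 34.2 CPM in 482N1 and 0.502 to 0.625 CPM in B16F10-BrM, and their part in these results was not tested. The class I heavy chain H2-K1 was lower (45.1 against 11.8 CPM, -1.94 ± 0.12) and the light chain B2m, which pairs with it, higher (196 against 601 CPM, 1.61 ± 0.08).

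Trp53, the gene of the p53 protein, stood at 0.129, 0 and 0 CPM in 482N1 and 15.9, 16.6 and 15.3 CPM in B16F10-BrM. These levels come from a single count in 482N1 and 416 counts in B16F10-BrM, a ratio of 381 (95% counting interval 68 to 15083) of B16F10-BrM over 482N1. Among p53 targets 16 were higher and 10 lower of 30, Trp53 included. Zmat3 (15.3 against 100.3 CPM, 2.71 ± 0.11), Cdkn1a and Ccng1 (39.4 against 94.5 CPM, 1.26 ± 0.10) were higher, and Pmaip1, a trigger of cell death, had no count in B16F10-BrM (27.3, 24.9 and 37.5 CPM in 482N1 and 0 CPM in every library of B16F10-BrM, at least 261-fold lower). Of the apoptosis regulators 10 were higher and 19 lower of 35. Both Bcl2l1, which protects cells (103 against 21.6 CPM, -2.25 ± 0.10), and Bcl2l11, which kills them (51.4 against 8.78 CPM, -2.53 ± 0.14), were lower.

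Genes for contact with the surroundings were lower in the melanoma line. Matrix proteins had 5 higher and 22 lower of 29 measured, of 58 listed, with a median log2 fold change of -2.53. Among basement membrane genes, Col4a1 stood at 203, 192 and 197 CPM in 482N1 and 7.50, 6.27 and 5.71 CPM in B16F10-BrM (log2 fold change -4.91 ± 0.11, adjusted p = 4.8e-38, edgeR). Lamb1 stood at 326, 303 and 319.8 CPM in 482N1 and 3.75, 4.39 and 3.03 CPM in B16F10-BrM (log2 fold change -6.41 ± 0.11, adjusted p = 3.7e-42, edgeR). Fibronectin, Fn1, was lower (520.2 against 21.2 CPM, -4.62 ± 0.10) and Fbln2 had no count (at least 3583-fold lower). Sparc stood at 161, 156 and 148 CPM in 482N1 and 1328, 1237 and 1200.0 CPM in B16F10-BrM (log2 fold change 3.02 ± 0.08, adjusted p = 6.9e-35, edgeR). Both directions held in every library. The list as a whole took 0.230 ± 0.00971% of counts in 482N1 and 0.161 ± 0.00757% in B16F10-BrM. Fbn1 was at 0 counts in both lines and gets no fold.

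Integrins and focal adhesion genes had 6 higher and 28 lower of 36. The laminin receptor chains Itga3 (139, 134 and 130.3 CPM in 482N1 and 0 CPM in every library of B16F10-BrM, at least 1171-fold lower), Itga6 (902 against 81.8 CPM, -3.46 ± 0.08) and Itgb4 (48.3 against 1.39 CPM, -5.15 ± 0.22) were lower. So was the collagen receptor chain Itga2 (165 against 0.345 CPM, -8.84 ± 0.22). Vinculin, Vcl (132 against 30.1 CPM, -2.13 ± 0.09), and Actn1 (435 against 114 CPM, -1.94 ± 0.08) were lower. Talins, which link integrins to actin, were higher, Tln1 slightly (209.7 against 300.3 CPM, 0.52 ± 0.07). Tln2 stood at 2.84, 3.85 and 5.83 CPM in 482N1 and 49.2, 51.9 and 51.3 CPM in B16F10-BrM (log2 fold change 3.60 ± 0.15, adjusted p = 3.1e-26, edgeR). Among junction genes the cadherin Cdh13 had no count in B16F10-BrM (282, 232 and 269.6 CPM in 482N1 and 0 CPM in every library of B16F10-BrM, at least 2277-fold lower), and Cdh2 (N-cadherin) was not called (90.4 against 90.9 CPM, 0.01 ± 0.09).

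Annexins and S100 proteins bind calcium and membranes, and 17 of 19 were lower and 1 higher. Anxa3 stood at 573, 500.1 and 483 CPM in 482N1 and 0 CPM in every library of B16F10-BrM (at least 4523-fold lower). Anxa2 stood at 1676, 1405 and 1799 CPM in 482N1 and 243, 237 and 189 CPM in B16F10-BrM (log2 fold change -2.87 ± 0.09, adjusted p = 7.4e-22, edgeR). Its partner S100a10 stood at 346, 337 and 370.0 CPM in 482N1 and 69.2, 63 and 74 CPM in B16F10-BrM (log2 fold change -2.35 ± 0.08, adjusted p = 1.3e-30, edgeR). The class took 1.82 ± 0.0395% of counts in 482N1 and 0.109 ± 0.00562% in B16F10-BrM. S100pbp, which is a binding partner and not a member of the S100 family, was the gene on the higher side (43.9 against 59.1 CPM, 0.43 ± 0.10). S100a4 is also in the fibroblast marker list, of which 3 of 12 genes were measured, and in which Col1a2 and Pdgfrb stood at or under 2 CPM in both lines.

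The actin list and the list of tubulins, transport kinesins and neuronal cytoskeleton genes leaned in opposite directions. Actin genes, with myosins and tropomyosins, had 12 higher and 40 lower of 58, and Ezr (922 against 141 CPM, -2.71 ± 0.08) and Capg (216 against 12.4 CPM, -4.12 ± 0.10) were among the lower ones. Myo5a, the motor that carries melanosomes, was higher (68.1 against 389 CPM, 2.51 ± 0.08), as was Myo7a (3.89 against 58.3 CPM, 3.90 ± 0.16). In the list of tubulins, kinesins of transport and neuronal cytoskeleton genes 24 were higher and 14 lower of 43, and tubulins were not counted apart. Tubb3 (0.413 against 26.5 CPM, 5.94 ± 0.28), Mapt (2.03 against 19.1 CPM, 3.22 ± 0.24) and Crmp1 (3.19 against 20.3 CPM, 2.66 ± 0.19), all known from neurons, were higher. Vim, the intermediate filament vimentin, was lower (7290.4 against 1465 CPM, -2.31 ± 0.07). Tubb2b had no count in B16F10-BrM (118, 101 and 96.8 CPM in 482N1 and 0 CPM in every library of B16F10-BrM, at least 917-fold lower).

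Extracellular proteases and their inhibitors had 8 higher and 22 lower of 32, with a median log2 fold change of -1.25, or -1.13 with genes at 0 counts set to their bound. Plaur, the urokinase receptor, was lower (56.8 against 1.63 CPM, -5.07 ± 0.19), while the membrane protease Mmp14 stood at 55.2, 50.8 and 49.1 CPM in 482N1 and 285, 253 and 266 CPM in B16F10-BrM (log2 fold change 2.38 ± 0.09, adjusted p = 5.5e-29, edgeR). Adamts1 stood at 13.2, 12 and 12.8 CPM in 482N1 and 164, 183 and 199.7 CPM in B16F10-BrM (log2 fold change 3.84 ± 0.11, adjusted p = 4.8e-34, edgeR). Semaphorins and plexins, guidance molecules and their receptors, had 12 lower and 5 higher of 18. The ligands Sema3c (353 against 2.06 CPM, -7.41 ± 0.13), Sema3a (44 against 0.244 CPM, -7.49 ± 0.26) and Sema3e (68.8 against 2.77 CPM, -4.62 ± 0.16) were lower. The receptors Plxnb1 (2.28 against 37.4 CPM, 4.01 ± 0.21) and Plxnd1 (7.53 against 94.4 CPM, 3.64 ± 0.13) were higher. Within the plexins Plxna4 went the other way, with 572 counts in 482N1 and 1 in B16F10-BrM.

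Transcription factors divided by family. All 13 epithelial and foregut factors measured, of 43 listed, were lower, with a median log2 fold change of -4.12. The other listed factors are not among the genes of the count table, so the direction holds only for those in it. Onecut2, a factor of gut and liver, stood at 925, 858 and 833 CPM in 482N1 and 7.40, 9.53 and 9.44 CPM in B16F10-BrM (log2 fold change -6.64 ± 0.11, adjusted p = 3.6e-41, edgeR). Foxa1, a pioneer factor of lung and liver, stood at 40.2, 40.3 and 40.4 CPM in 482N1 and 0.625, 0.627 and 0.350 CPM in B16F10-BrM (log2 fold change -6.20 ± 0.24, adjusted p = 6.1e-28, edgeR). Klf and Sp factors had 13 lower and 1 higher of 16. Klf5 (514 against 0.607 CPM, -9.68 ± 0.16), Klf4 (152 against 8.73 CPM, -4.12 ± 0.11), Klf9 (354 against 83.1 CPM, -2.09 ± 0.08) and Klf6 (492 against 162 CPM, -1.60 ± 0.07) were lower. Sp4 was higher (3.87 against 6.24 CPM, 0.69 ± 0.26), a call that was lost without library A of 482N1. Klf4, Klf5 and Klf6 stand in both lists. Runx1 was lower (191 against 11.7 CPM, -4.03 ± 0.10) as was Ets2 (86.4 against 11.3 CPM, -2.93 ± 0.12), and Ets1 higher (23.6 against 222 CPM, 3.23 ± 0.09).

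SOX factors differed in which members were high. Sox and Fox factors together had 8 higher and 10 lower of 22. The list of neural crest and neural factors had 7 higher and 5 lower of 13 measured, of 48 listed, with Sox4 and Sox9 among its lower members. Sox9 stood at 666, 603 and 666 CPM in 482N1 and 28.6, 31 and 29.8 CPM in B16F10-BrM (log2 fold change -4.44 ± 0.09, adjusted p = 2.8e-39, edgeR). Sox4 was lower (999.9 against 149 CPM, -2.74 ± 0.08). Sox6 stood at 0.258, 0.602 and 0.380 CPM in 482N1 and 85.1, 99.6 and 89.8 CPM in B16F10-BrM (log2 fold change 7.72 ± 0.22, adjusted p = 7.3e-34, edgeR). Sox5 had 2 counts in 482N1 and 1056 in B16F10-BrM, with a ratio of 484 (95% counting interval 134 to 3998) of B16F10-BrM over 482N1. Tfap2a, a neural crest factor, stood at 0.387, 0.963 and 0.380 CPM in 482N1 and 63.8, 65.6 and 69.9 CPM in B16F10-BrM (log2 fold change 6.79 ± 0.21, adjusted p = 2.9e-32, edgeR). The libraries of the lines were apart in each of these genes. The ZEB repressors went in opposite directions. Zeb1 had 1399 counts in 482N1 and 2 in B16F10-BrM. Zeb2 stood at 25.2, 24.2 and 24.5 CPM in 482N1 and 139, 142 and 145 CPM in B16F10-BrM (log2 fold change 2.53 ± 0.10, adjusted p = 2.5e-28, edgeR). In the list of factors of epithelial to mesenchymal transition 3 were higher and 9 lower of 12, with a median log2 fold change of -2.98, or -1.85 with genes at 0 counts set to their bound. The lower ones included Twist1 (20.4, 22.3 and 22.4 CPM in 482N1 and 0 CPM in every library of B16F10-BrM, at least 189-fold lower) and Hmga2 (1771 against 67.7 CPM, -4.71 ± 0.08). Hoxa10 had no count in 482N1 (0 CPM in every library of 482N1 and 31.7, 31.5 and 27 CPM in B16F10-BrM, at least 240.0-fold higher).

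**Figure D5:**
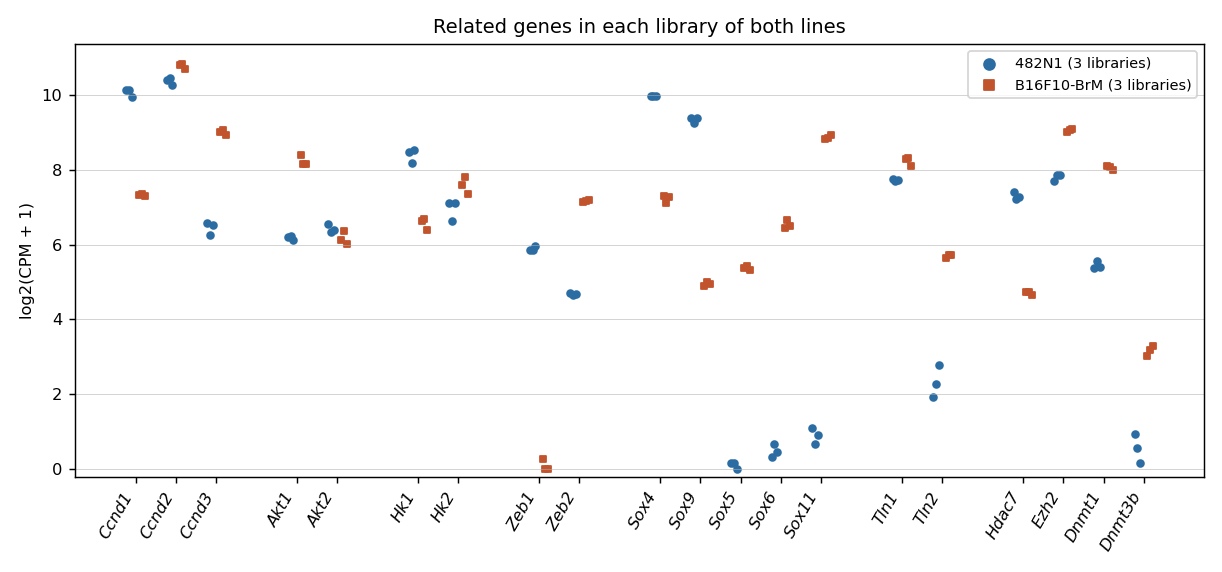
Level of related genes, log2(CPM + 1), in each of the 3 libraries of 482N1 (circles) and of B16F10-BrM (squares). Ccnd1, Hk1, Zeb1, Sox4 and Sox9 are higher in 482N1, and Ccnd3, Akt1, Hk2, Zeb2, Sox5, Sox6, Sox11 and Dnmt3b in B16F10-BrM.

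With at least 10 CPM in 1 line and at most 3 counts over the libraries of the other, 158 genes were found in 482N1 only and 35 in B16F10-BrM only. Of the 158, 105 had no count in B16F10-BrM, and of the 35, 12 had none in 482N1. A variant took library B, the library with the lowest melanocyte marker level, as the only library of 482N1. It also allowed at most 1 count in the other line in place of 3, so both settings changed at once. In that variant 53 genes were found in B16F10-BrM only and 156 in 482N1 only. With at least 20 CPM asked for, or with at least 5 CPM and no count in the other line, 20 genes were found in B16F10-BrM only. Genes of the lung line included the receptor F2r (515, 462 and 429.7 CPM in 482N1 and 0 CPM in every library of B16F10-BrM, at least 4086-fold lower), which senses thrombin. The kinase Pak1 (151, 155 and 137 CPM in 482N1 and 0 CPM in every library of B16F10-BrM, at least 1288-fold lower) was another. The chloride channel Ano1 had 5595 counts in 482N1 and 3 in B16F10-BrM, and the prostaglandin synthase Ptges had 5028 counts in 482N1 and 1 in B16F10-BrM. Genes of the melanoma line included the channel subunit Kcnab2 with 3 counts in 482N1 and 1535 in B16F10-BrM, the adhesion molecule Mcam with 2 counts in 482N1 and 1302 in B16F10-BrM and the receptor kinase Acvrl1 with 2 counts in 482N1 and 920 in B16F10-BrM.

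Along the chromosomes, 4 runs of 3 neighbouring measured genes were found in 482N1 with at least 5 CPM and had at most 3 counts in B16F10-BrM. The EGF family ligands Ereg, Areg and Btc formed one of them. Another held the DNA sensor Aim2 (1282 counts in 482N1 and 3 in B16F10-BrM) with its relatives Ifi204 (279 counts in 482N1 and 3 in B16F10-BrM) and Mndal (7174 counts in 482N1 and 1 in B16F10-BrM). A further run held Jrk (248 counts in 482N1 and 0 in B16F10-BrM), Them6 (137 counts in 482N1 and 0 in B16F10-BrM) and Ly6e (871 counts in 482N1 and 0 in B16F10-BrM). The last held Ccdc68 (827 counts in 482N1 and 0 in B16F10-BrM), Rab27b (488 counts in 482N1 and 2 in B16F10-BrM) and Dynap (516 counts in 482N1 and 0 in B16F10-BrM). No run of this kind was found in the other direction, in which fewer genes could form one. At 10 CPM or more with at most 3 counts in the other line, 35 genes were found in B16F10-BrM only and 158 in 482N1 only. Whether the runs exceed what such numbers give was not tested. Gene order came from a RefSeq list of an earlier build, and whether DNA was lost at these places was not tested. Ifi204 and Mndal belong to a family of similar sequence, so reads may be split between them.

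Some families of mixed function were split more evenly between the directions. Zinc finger genes named Zfp had 91 higher and 85 lower of 279, so 63.1% were called, fewer than the 77.8% of all genes. Solute carriers had 62 and 62 of 162 (76.5% called). Subunits of Mediator had 12 and 9 of 29 (72.4% called). Long non-coding RNAs were called about as often as the rest, 74.5% of 243, with 86 higher and 95 lower, whereas of 230 pseudogenes 38 were higher and 127 lower. Ribosomal protein pseudogenes, taken by name, had 3 higher and 44 lower of 68, and their reads may be split with the parent genes, which were mostly lower. Few genes were shown to be near equal: for 295 genes (2.67%) the 95% interval of the fold change lay within 1.2-fold in either direction. Among these were the translation factor Eif3a (1313 ± 125 CPM in 482N1 and 1233 ± 31.2 CPM in B16F10-BrM, -0.09 ± 0.07 on the log2 scale) and the RNA-binding protein Ybx1 (1306 ± 35.7 CPM in 482N1 and 1218 ± 43.6 CPM in B16F10-BrM, -0.10 ± 0.07). The imprinted signalling gene Gnas was another (1420.3 ± 93.5 CPM in 482N1 and 1461 ± 72.1 CPM in B16F10-BrM, 0.04 ± 0.07).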

How the data were processed

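RNA was measured in 9 libraries by sequencing of poly(A)-selected, stranded RNA. The authors deposited 1 table of whole-number read counts per gene, with 11046 genes. Per the submitters' processing notes Cufflinks 2.2.1, SAMtools 0.1.19, TopHat2 2.0.10, FastQC and Bowtie 1.0.0 were among the tools, with build GRCm39. The counting step, the annotation and the choice of genes are not given in the sources used here. Counts were filtered with filterByExpr over all 9 libraries, scaled by TMM and tested with the quasi-likelihood F test of edgeR 4.0.16 (R 4.3.3), with Benjamini-Hochberg adjustment, in a fit of all 3 lines. The fit was tested on simulated data. DESeq2 1.42.0 and limma-voom (limma 3.58.1) were alternatives. Library letters did not pair the samples (correlations of same-letter deviations -0.0099, 0.0019 and 0.012). The 3-count floor and the intervals of count ratios cover counting error only, and intervals of fold changes come from the model's spread between libraries. The members and the gene lists were chosen with earlier results of these data known. Genes in the text were picked by a rule: the 20 highest and 20 lowest ratios, up to 4 called members per list and direction with at least 10 CPM, the 15 largest shares of counts per line, 10 genes with an interval within 1.2-fold, and runs of neighbours. The remaining 121, chosen after their values were seen as partners or relatives of these, are Actn1, Acvrl1, Adsl, Akt2, Amotl1, Anxa2, Atf4, Atic, Atp6ap1, Bcl2l1, Bcl2l11, Bnip3, Brca1, Ccnd2, Ccne2, Ccng1, Cdh2, Cdk4, Cdkn1a, Cdkn2d, Cdt1, Crmp1, Ddb2, Ddr1, Dnmt3b, Egfr, Egln1, Egln3, Erbb2, Ets1, Ets2, Ezh2, Ezr, Fbn1, Fn1, Fzd5, Gabarap, Gabarapl1, Gapdh, Gclm, Gins3, Gpx1, Gsr, Gss, Gstm1, H1f10, Hbegf, Hif1a, Hk2, Id1, Id2, Id3, Ifit2, Igf1r, Insr, Itga6, Itgb4, Kdm5b, Kdm5c, Klf6, Klf9, Lamb1, Ldha, Lgr6, Map1lc3a, Map1lc3b, Mcam, Mcm2, Mertk, Ndrg1, Nfe2l2, Nfkb2, Nhp2, Ogdh, Orc2, Pak1, Pcna, Pdk1, Pdk3, Pfas, Pfkfb4, Phgdh, Phlda1, Plaur, Prdx1, Psat1, Psmb5, Ran, Rrm1, Rrm2b, Runx1, S100a10, Scd1, Sec61b, Sema3e, Sf3b1, Skp2, Slc16a1, Slc2a1, Slc6a9, Slc7a11, Slc7a3, Smad3, Smad7, Smarca4, Smc2, Sp4, Spc25, Sphk1, Spry4, Sqstm1, Suz12, Tet2, Tgfb1, Tk1, Tln1, Tyro3, Vcl, Vegfa, Wwtr1 and Yap1. Some genes and lists are not reported here.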

Additional observations from a re-analysis of the deposited data

How the results depend on the processing

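The number of genes called, 8592, ranged from 8233 to 8339 when 1 library was left out and was 8595 with the library letter as a replicate block, which changed the side of the threshold of no gene named. It was 8337 with DESeq2, 8587 with limma-voom, and 7682 when library B was the only library of 482N1 and of E0771-BrM. Tested against a 2-fold change, 3477 genes were called. Upper-quartile scaling moved the median of all genes from -0.04 to 0.02 on the log2 scale and the higher share of calls to 51.5%. Of 373 genes named, 362 to 373 kept their direction and side of the threshold in each of 16 alternatives, and none reversed. Most named genes were picked because they were called, or after their values were seen, so their stability was largely set by the choice. Genes found in B16F10-BrM only numbered 35. They numbered 20 with at least 5 CPM and no count, and 20 with at least 20 CPM. With library B as the only library of 482N1 and at most 1 count they numbered 53. The median of G protein-coupled receptors turned from 0.26 to -0.0836 with library B as the only library of 482N1 and of E0771-BrM. The difference in the share of counts of solute carriers turned to -0.0423 percentage points without ribosomal RNA genes. The cause was not tested. Each line is 1 culture line, so nothing here separates tumour type from line. Genes under 5 CPM had a median SE of 0.35, so differences of less than about 2-fold were often not detectable there.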

Other observations

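Chemokine, interleukin and receptor genes measured were 8 higher and 15 lower of 28. Sterol synthesis and uptake had 12 higher (48%) and 7 lower (28%) of 25, beside 38.0% and 39.9% of all genes. Genes of cilia and intraflagellar transport had 19 higher (38.8%) and 16 lower (32.7%) of 49. F-box genes, which choose proteins for ubiquitin ligases, had 25 lower and 10 higher of 48. Protein tyrosine phosphatases were 8 higher and 11 lower of 22. Mitochondrial import and protein quality genes were 24 higher and 11 lower of 43.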
